A study of Homo sapiens with 4 samples.

Results

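Keratins of ductal adenocarcinoma cells are described here as 7 genes, KRT7, KRT8, KRT10, KRT17, KRT18, KRT19 and KRT80, chosen by name out of 25798 gene IDs in the tables. Total RNA was sequenced from SW1990, an established human pancreatic adenocarcinoma line with the genotype given as WT. In 2 libraries the cells had been kept with 100 nM erianin for 48 h, and in 2 libraries with DMSO, the solvent, for 48 h. All libraries come from this 1 line. Whether the replicates are separate cultures is not stated in the labels, so a p-value here reflects the spread of the libraries alone, possibly a technical one. In bulk RNA, fewer cells of a kind and less RNA per cell cannot be told apart. The deposited counts added up to between 59923935 and 63336545 per library. Of the 7 keratins, 6 passed the filter on low counts and KRT17 did not.

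Keratins are the intermediate filament proteins of epithelial cells. Acidic type I keratins (here KRT10, KRT17, KRT18 and KRT19) pair with basic type II keratins (KRT7, KRT8 and KRT80), and filaments form only from such pairs. KRT8 and KRT18 are the pair of simple epithelia, KRT7 and KRT19 mark duct cells of the pancreas, KRT17 belongs to basal and injured epithelium, and KRT10 is a keratin of differentiated epidermis. KRT80 is a type II keratin of several epithelia. Erianin, a plant bibenzyl, is known to bind tubulin, the subunit of another part of the cytoskeleton.

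The stretch of coding sequence that ends the rod domain is shown for the 4 type I genes because it encodes a conserved end of the keratin rod. Capitals mark the 21 bases that encode the helix termination motif, found in the translated main transcript of each gene (GENCODE 29, GRCh38, coding strand).
KRT18: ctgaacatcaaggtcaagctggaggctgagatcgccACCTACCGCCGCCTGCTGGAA
KRT19: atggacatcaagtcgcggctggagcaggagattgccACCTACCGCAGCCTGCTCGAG
KRT17: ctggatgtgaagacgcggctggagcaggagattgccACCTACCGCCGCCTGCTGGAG
KRT10: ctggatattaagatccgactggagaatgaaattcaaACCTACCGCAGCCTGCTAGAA
Within this stretch KRT17 and KRT19 had 50 of 57 bases in common, and KRT10 and KRT18 had 41 of 57. Over the aligned bases of the coding sequences of the 7 genes, gaps left out, the 9 pairs within a type were 57.8% to 73.6% identical (median 63.9%). The 12 pairs between types were 53.7% to 58.8% identical (median 55.7%). The stretch of KRT18 lies at chr12:52952269-52952325 on the plus strand. The others lie on the minus strand of chromosome 17 (chr17:41523791-41523847 for KRT19, chr17:41620673-41620729 for KRT17 and chr17:40819528-40819584 for KRT10).

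SW1990 cells held 4 of the keratins at very high levels. KRT8 (ENSG00000170421, chromosome 12, 52897187 to 52949954) was at 2648 and 3030 FPKM in the erianin libraries and at 2627 and 2613 FPKM in the DMSO libraries. KRT18 (ENSG00000111057, chromosome 12, 52948871 to 52952901) was at 2273 and 2317 FPKM with erianin and at 2225 and 2235 FPKM with DMSO. By mean FPKM KRT8 ranked 36 and KRT18 ranked 49 among all gene IDs, in either group. KRT7 (ENSG00000135480, chromosome 12, 52232520 to 52252186) was at 1180 and 1235 FPKM with erianin and at 1116 and 1131 FPKM with DMSO. KRT19 (ENSG00000171345, chromosome 17, 41523617 to 41528308) was at 999.9 and 1003 FPKM with erianin and at 892.9 and 930.7 FPKM with DMSO. Together with these, the cells held far less of the other members. KRT80 (ENSG00000167767, chromosome 12, 52168996 to 52192000) was at 27.6 and 25.9 FPKM with erianin and at 24.4 and 24.7 FPKM with DMSO. KRT10 (ENSG00000186395, chromosome 17, 40818117 to 40822595) was at 8.16 and 8.22 FPKM with erianin and at 7.82 and 8.98 FPKM with DMSO.

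The order of the levels was KRT8, KRT18, KRT7, KRT19, KRT80, KRT10 and KRT17 in both groups, and no neighbours in this order overlapped within a group. The step from KRT19 to KRT80 was the widest between members above 1 FPKM, a ratio of mean FPKM of 37.4 with erianin and 37.1 with DMSO. Narrow steps were those of KRT7 over KRT19, at 1.21 with erianin and 1.23 with DMSO, and of KRT8 over KRT18, at 1.24 with erianin and 1.18 with DMSO. The 7 genes took 1.325% and 1.398% of all counts in the erianin libraries (95% Wilson intervals 1.322% to 1.327% and 1.395% to 1.401%). In the DMSO libraries they took 1.280% and 1.291% (1.277% to 1.282% and 1.288% to 1.294%). Such intervals cover counting error only. KRT7, KRT8, KRT18 and KRT19 made up 98.9% to 99.0% of these counts in the 4 libraries.

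**Figure D1:**
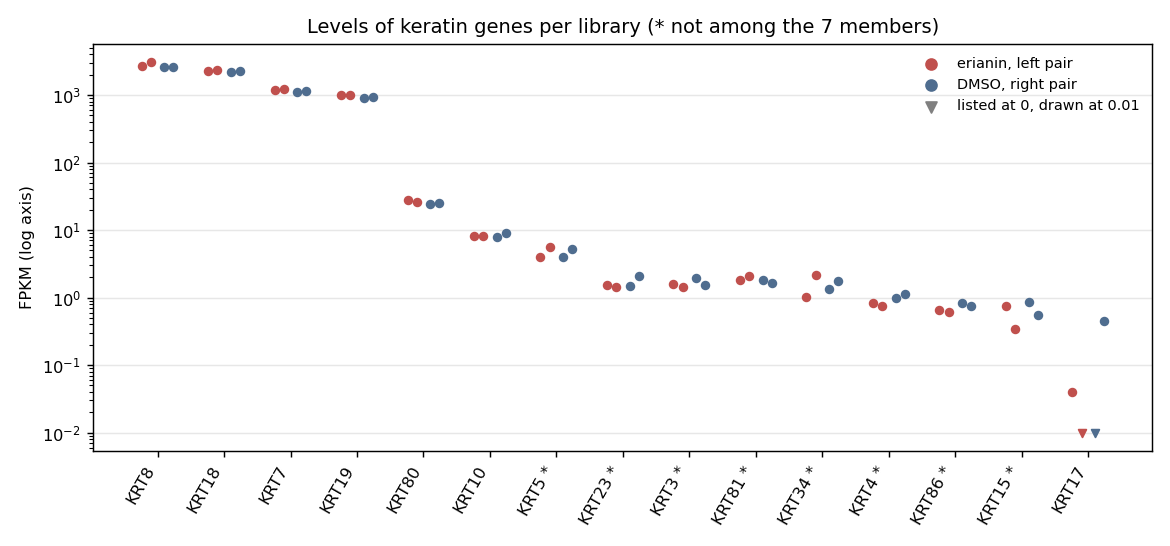
Levels of the 7 keratins and of the 8 other keratins with a mean of at least 1 CPM (marked with a star), in FPKM on a log axis. Each point is a library, erianin in red to the left of DMSO in blue, and triangles are libraries listed at 0. KRT8, KRT18, KRT7 and KRT19 lie at 892.9 FPKM or more and KRT17 at 0.45 FPKM or less in every library.

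KRT17 (ENSG00000128422, chromosome 17, 41619441 to 41624842) was close to absent. It had 2 and 0 counts in the erianin libraries and 0 and 50 counts in the DMSO libraries, so all but 2 of its counts came from DMSO replicate 2. A count of 0 allows up to 0.0540 CPM in erianin replicate 2 and 0.0455 CPM in DMSO replicate 1. KRT17 was not tested, and the groups overlap. Its pseudogenes KRT17P4 and KRT17P5 together had 0 and 26 counts with erianin and 19 and 0 counts with DMSO, so the libraries with the copies were not the ones with KRT17. Summed with these copies, KRT17 had a log2 fold change of -1.13 ± 1.12 (SE, edgeR adjusted p = 0.716).

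Duct markers were present and acinar markers were near 0, while the 4 endocrine markers were not analysed here. All 12 ductal markers were detected, 10 of them with a mean of at least 1 FPKM, and 4 of the 12 are keratins described here. Apart from these keratins, mean levels ran from 0.28 FPKM for CFTR and 0.79 for CLDN7 to 35.3 for CLDN4. EPCAM, the epithelial adhesion molecule, was low at 2.72 FPKM with erianin and 2.21 FPKM with DMSO, while the filament gene VIM, which encodes vimentin and is typical of mesenchymal cells, was at 783.1 FPKM with erianin and 900.9 FPKM with DMSO. Of 8 squamous or basal markers 7 were in the table, and KRT5 and S100A2 were the only ones at 1 FPKM or more. The 3 of 6 acinar markers in the table summed to between 0 and 0.13 FPKM per library. Fibroblast markers, 7 in number, summed to 1.93 and 2.52 FPKM in the erianin libraries. In the DMSO libraries they summed to 7.04 and 2.47 FPKM, high in DMSO replicate 1 alone. DCN was at 0 in both erianin libraries and at 1.0 and 0.02 FPKM with DMSO, while PDGFRB had a mean of 0.86 FPKM in either group. The part of the fibroblast transcripts in the keratin values was not tested. Of 5 blood markers 4 were in the table, and only CD68, also a lysosomal gene, exceeded 1 FPKM. The 3 of 4 endothelial markers in the table summed to at most 0.4 FPKM.

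In the comparison of erianin with DMSO, which asked what changes in these cells under a compound that the study's title places on AKT and ASK1, no keratin passed the test. Over all genes 7 of 17090 passed at an adjusted p under 0.05, 0.041% of those tested, and 0 of the 6 keratins tested were among them. In the higher direction the share of all genes was 0.0117%. All 6 had a log2 fold change above 0, from 0.06 to 0.24, with a median of 0.20, against a median of -0.01 over all genes tested, of which 48.7% were above 0. At an unadjusted p under 0.05, edgeR had KRT19 and KRT80 as higher, where 2.21% of all genes were higher at that level and 8.1% differed in either direction. Both erianin libraries lay above both DMSO libraries by CPM in 5 of 6 keratins, and in 21.7% of all genes.

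Among the type II keratins, KRT8 had 5639 and 6533 CPM with erianin, against 5250 and 5428 CPM with DMSO. The erianin libraries lay above the DMSO libraries, and differed more from each other than the DMSO libraries did. Its log2 fold change was 0.19 ± 0.11 (SE, 95% interval -0.06 to 0.44, edgeR adjusted p = 0.581). KRT7 had 2129 and 2474 CPM with erianin, against 1972 and 2006 CPM with DMSO, with erianin replicate 2 again the highest. Its log2 fold change was 0.21 ± 0.10 (SE, interval -0.03 to 0.45, edgeR adjusted p = 0.575). KRT80 had 121.3 and 127.0 CPM with erianin, against 105.0 and 107.1 CPM with DMSO. Here the groups were apart by more than either pair of replicates, with a log2 fold change of 0.23 ± 0.09 (SE, interval 0.01 to 0.44, edgeR adjusted p = 0.575).

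Among the type I keratins, KRT18 had 3684 and 4170 CPM with erianin, against 3538 and 3568 CPM with DMSO. The groups did not overlap, but the lowest erianin library was above the highest DMSO library by only 0.05 on the log2 scale. Its log2 fold change was 0.14 ± 0.10 (SE, interval -0.09 to 0.38, edgeR adjusted p = 0.625). KRT19 had 1580 and 1753 CPM with erianin, against 1380 and 1445 CPM with DMSO. Both erianin libraries were the higher ones, and its log2 fold change of 0.24 ± 0.10 was the largest of the 6 (SE, interval 0.01 to 0.47, edgeR adjusted p = 0.575). KRT10 had 20.0 and 22.4 CPM with erianin, against 18.8 and 21.7 CPM with DMSO, so that the groups overlapped. Its log2 fold change was 0.06 ± 0.155 (SE, interval -0.295 to 0.42, edgeR adjusted p = 0.902), and it took the other sign with library totals alone, on the FPKM table, with the GC trend removed, without DMSO replicate 1 and without erianin replicate 2.

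**Figure D2:**
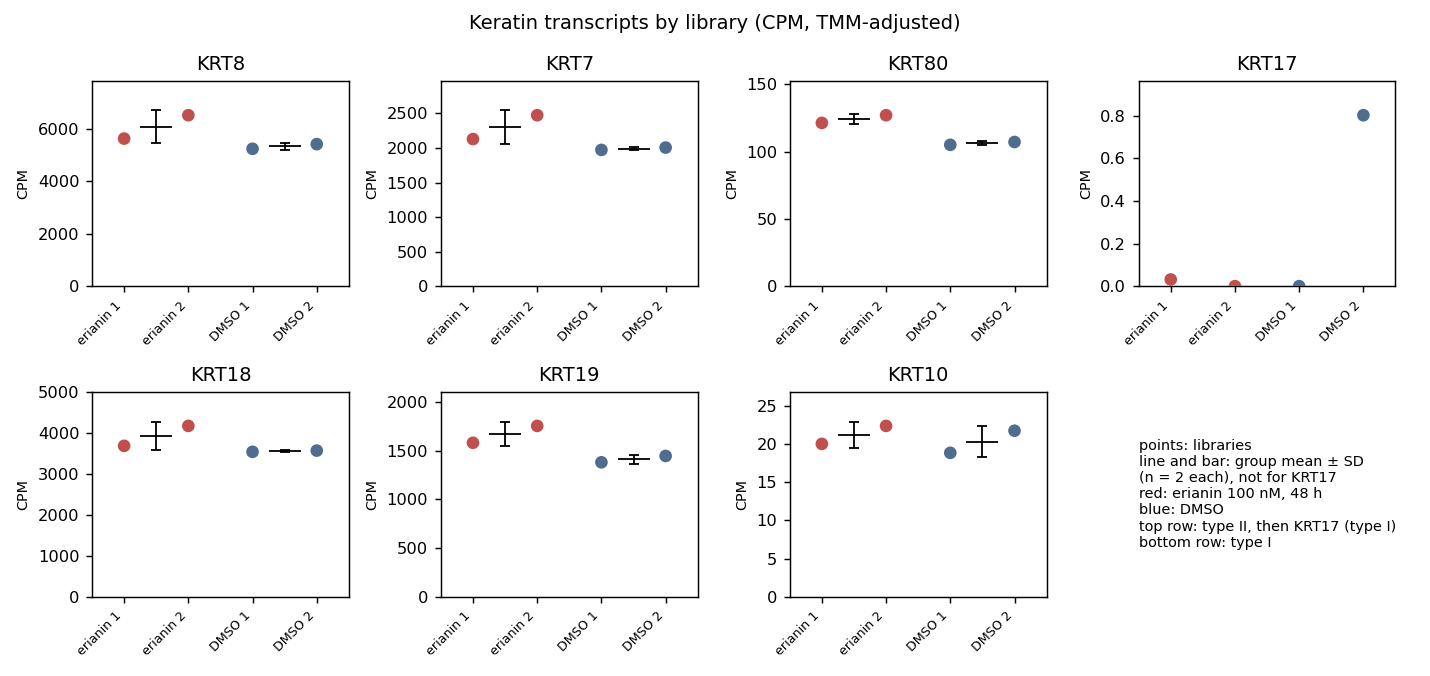
CPM of each of the 7 keratins in every library, each panel from 0, with erianin to the left of DMSO and the group mean ± SD (n = 2 each, not drawn for KRT17). Erianin replicate 2 is the highest library in all panels but that of KRT17, where DMSO replicate 2 stands alone at 0.801 CPM.

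Erianin replicate 2 lay farther from the DMSO libraries than erianin replicate 1 for all 6. Its TMM factor was 0.928, where the other libraries had 1.01 to 1.04, and with library totals in place of TMM the median over the 6 was 0.097. Against the mean of the DMSO libraries, KRT8 was higher by 0.08 on the log2 scale in erianin replicate 1 and by 0.29 in erianin replicate 2. For KRT7 these values were 0.10 and 0.32, for KRT18 they were 0.05 and 0.23, and for KRT10 they were -0.02 and 0.14. KRT19, at 0.16 and 0.31, and KRT80, at 0.19 and 0.26, differed less between the erianin libraries. Without erianin replicate 1, the log2 fold changes of KRT7, KRT8, KRT18, KRT19 and KRT80 ran from 0.22 to 0.30. With 1 erianin library left, the spread in that fit comes from the DMSO libraries alone, and the lone erianin library is assumed to vary like them. Without erianin replicate 2 the median over the 6 was 0.09.

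Across 7959 genes the log2 fold change was higher by 0.18 for every 10 percentage points of GC in the transcript. Between the erianin libraries, replicate 2 over 1, this slope was 0.187, and between the DMSO libraries 0.0434. The GC content was 62.9% for KRT7, 61.8% for KRT19, 56.8% for KRT80, 56.2% for KRT8, 55.7% for KRT18 and 52.0% for KRT10. Other genes within 1 percentage point of each, all at a mean log2 CPM of 3 or more, had median log2 fold changes of 0.17 at the GC content of KRT7, 0.16 at that of KRT19, 0.13 at those of KRT80 and KRT8, 0.12 at that of KRT18 and 0.04 at that of KRT10. After removal of the GC and length trends the log2 fold change was 0.14 for KRT80, 0.07 for KRT8, 0.016 for KRT19, 0.0028 for KRT18, -0.0046 for KRT7 and -0.0018 for KRT10. The median over the 6 was then 0.01.

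**Figure D3:**
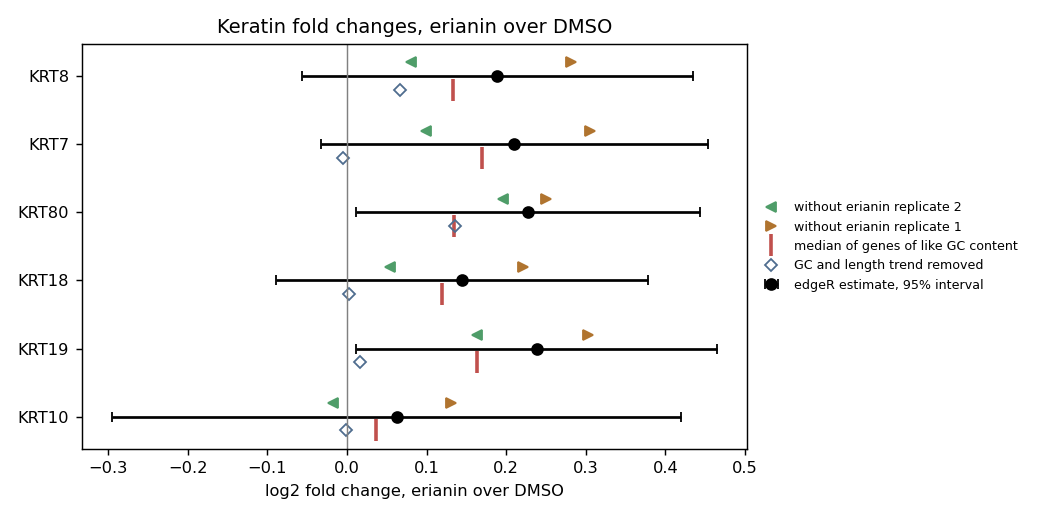
Log2 fold changes of the 6 tested keratins, erianin over DMSO, with 95% intervals (black), without either erianin library (triangles), with the GC and length trend removed (diamonds), and the median of genes of like GC content (red ticks). Removing the trend brings 5 of the 6 to 0.07 or less and KRT80 to 0.14.

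By FPKM type II and type I keratins were at similar summed levels, and the groups overlapped in their ratio. Summed FPKM of type II over type I was 1.18 and 1.29 in the erianin libraries and 1.205 and 1.19 in the DMSO libraries. KRT8 over KRT18 was 1.17 and 1.31 with erianin and 1.18 and 1.17 with DMSO, and KRT7 over KRT19 was 1.18 and 1.23 with erianin and 1.25 and 1.22 with DMSO. In the first of these 2 ratios erianin replicate 2 stands alone, and in both the groups overlap. From erianin replicate 1 to 2 KRT8 went from 359141 to 363020 counts, but from 2648 to 3030 FPKM. Summed FPKM depend on how counts are divided among the entries of a gene, given below. The part of this in the ratios was not tested. By counts, which are not per length, KRT8 over KRT18 was 1.531 and 1.567 with erianin and 1.484 and 1.521 with DMSO. These count ratios did not overlap between the groups, by a margin smaller than the gap within either, and were not tested.

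The tables hold several unnamed entries per gene, and for KRT8 their shares differed widely between libraries while the sum of its counts did not. Of the 18 entries of KRT8, the entry listed seventh took 47.1% and 75.4% of the gene's counts in the erianin libraries and 28.1% and 53.2% in the DMSO libraries. The entry listed second took 6.61% and 2.49% with erianin and 54.6% and 4.41% with DMSO, so that DMSO replicate 1 alone had it as the main one. Over the same libraries the sums for KRT8 were 359141 and 363020 counts with erianin and 346505 and 338639 with DMSO. Of the 7 entries of KRT18, the main one took 68.1% and 70.4% with erianin and 63.3% and 57.2% with DMSO. KRT7 and KRT19 rested on 1 entry each, with at least 98.5% of the counts in every library. KRT80 had 3 entries, the main one at 82.2% and 72.5% with erianin and 70.3% and 79.4% with DMSO. The groups did not overlap in the share of the main entry for KRT18, for KRT19 or for KRT10. KRT19 was at 99.2% and 98.8% with erianin and 98.73% and 98.66% with DMSO. KRT10 was at 93.6% and 94.9% with erianin and 92.8% and 90.8% with DMSO. These shares were not tested, and how often such a gap occurs over all genes was not counted.

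**Figure D4:**
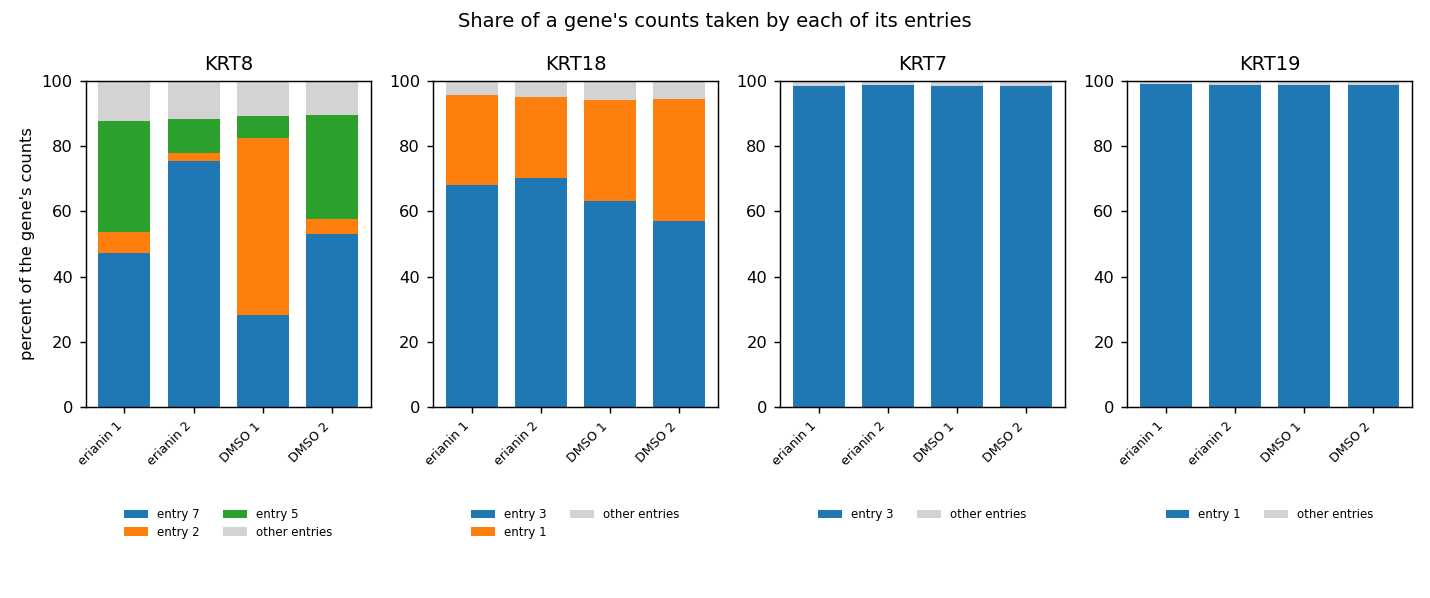
Percent of each gene's counts taken by its entries in each library, for KRT8, KRT18, KRT7 and KRT19, erianin to the left of DMSO (entries under 5% in every library are pooled in grey). The seventh entry of KRT8 ranges from 28.1% to 75.4%, and the main entries of KRT7 and KRT19 stay above 98%.

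Keratins have many near copies in the genome, and the reads of KRT8 and KRT18 could be divided with them. KRT8 has 23 pseudogenes named after it in the table, with 1629 and 1914 counts in all in the erianin libraries and 1712 and 1820 in the DMSO libraries, or 0.454% to 0.537% of those of KRT8. KRT18 has 28, with 163 and 203 counts with erianin and 157 and 235 with DMSO. KRT8P3 had the most counts of the copies, 899 and 1139 with erianin and 923 and 981 with DMSO. Also above 1 CPM in some library were KRT8P5, KRT8P10, KRT8P12, KRT8P33 and KRT8P45, and none of them passed edgeR's test (log2 fold changes from -0.31 to 0.24, smallest adjusted p = 0.673). Summing KRT8 with its named pseudogenes left its log2 fold change at 0.19, and summing KRT18 with its own left it at 0.14.

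Annotated neighbours overlap 5 of the 7 genes, taken over whole gene spans from start to end. Without knowing the strand setting, reads from shared bases cannot be told apart. For KRT86, on the same strand as KRT7, the setting would not separate them either. KRT8 and KRT18 overlap by 1084 bases on opposite strands, and for KRT8 counted together with KRT18 and the other genes that share its sequence the log2 fold change was 0.17 ± 0.11 (SE). The antisense gene KRT7-AS overlaps KRT7, with 1.99 and 1.76 CPM with erianin and 1.89 and 2.32 CPM with DMSO, so it is small beside KRT7. KRT10 overlaps KRT10-AS1 on the opposite strand, which had 940 and 775 counts with erianin and 786 and 828 with DMSO, beside 1274 and 1242 counts of KRT10 with erianin and 1243 and 1355 with DMSO. KRT80 overlaps LINC00592, which had at most 11 counts in a library.

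Keratins outside the 7 were scarce. Among 27 other keratins listed, 14 were tested, 4 of them above and 10 below 0 in log2 fold change, with a median of -0.17, and none passed (smallest edgeR adjusted p = 0.576). The 8 with a mean of at least 1 CPM were all below 6 FPKM in every library. KRT5, the type II keratin of basal cells, was the most abundant, at 9.88 and 15.3 CPM with erianin and 9.97 and 12.9 CPM with DMSO. Its usual type I partner KRT14 had at most 0.0801 CPM in any library, and the stress keratin KRT16 was between 0.0360 and 0.330 CPM. KRT81, a hair-type keratin, was at 3.99 and 5.201 CPM with erianin and 3.94 and 3.56 CPM with DMSO (log2 fold change 0.29 ± 0.25, SE). KRT4, a keratin of lining squamous epithelium, was at 2.04 and 2.02 CPM with erianin and 2.33 and 2.74 CPM with DMSO (-0.32 ± 0.28, SE). For KRT86, which overlaps KRT7 in the annotation, the log2 fold change was -0.22 ± 0.31, and for KRT15 it was -0.29 ± 0.44 (SE). KRT3, KRT23 and KRT34 had log2 fold changes of -0.11, -0.03 and 0.15, with overlapping groups.

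Of the genes that tie keratins to desmosomes and other junctions, 15 of 19 were tested and none passed, with 6 above and 9 below 0 and a median of -0.16. At an unadjusted p under 0.05, edgeR had 4 of the 15 as lower and 0 as higher, where 5.89% of all genes were lower at that level. For this list and the others beside the 7 keratins, the GC trend described above was not removed, and its part was not tested. DSG2, a desmosomal cadherin, had 13.8 and 10.3 CPM with erianin and 17.5 and 16.8 CPM with DMSO (log2 fold change -0.51 ± 0.18, SE, edgeR adjusted p = 0.575). TCHP, which encodes trichoplein, a keratin-binding protein, was at 5.50 and 6.21 CPM with erianin and 8.35 and 8.46 CPM with DMSO (-0.52 ± 0.19, SE). PKP2, plakophilin 2 of the desmosomal plaque, was at 7.91 and 6.96 CPM with erianin and 10.3 and 10.1 CPM with DMSO (-0.46 ± 0.18, SE). JUP, plakoglobin of the same plaque, is the most abundant gene of the list and lay on the other side, at 414.5 and 446.0 CPM with erianin and 384.4 and 372.0 CPM with DMSO (0.19 ± 0.09, SE).

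Chaperones, 14-3-3 proteins and cell death proteins that bind or cut keratins, 11 in number, had a median log2 fold change of -0.10, with 4 above and 7 below 0 and none past the test. HSPA8, the constitutive HSP70 that binds keratins 8 and 18, had 526.8 and 428.0 CPM with erianin and 621.0 and 571.7 CPM with DMSO (log2 fold change -0.32 ± 0.12, SE, edgeR adjusted p = 0.575). For YWHAZ, a 14-3-3 protein, the log2 fold change was -0.35 ± 0.16, for STUB1, a chaperone-linked ubiquitin ligase, 0.23 ± 0.125, and for the small heat shock gene HSPB1 0.16 ± 0.10 (SE). Of the other intermediate filament genes 9 of 13 were tested, 2 above and 7 below 0, and none passed. LMNB1, lamin B1 of the nuclear lamina, had 24.1 and 20.3 CPM with erianin and 32.6 and 31.8 CPM with DMSO (-0.54 ± 0.15, SE, edgeR adjusted p = 0.575). SYNM, synemin, was at -0.49 ± 0.28, LMNA, of lamins A and C, at 0.12 ± 0.09, and VIM at -0.08 ± 0.09 (log2 fold change, SE).

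Transcription factors of epithelial and squamous cells, 10 of 16 tested, split evenly into 5 above and 5 below 0, with a median of 0.05 and none past the test. FOXA1 had a log2 fold change of -0.43 ± 0.24, ELF3 one of 0.22 ± 0.14 and SP1 one of -0.26 ± 0.18 (SE). TP63, a transcription factor of basal epithelium, had counts in erianin replicate 1 only, at 0.251 CPM.

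The genes whose pattern over the 4 libraries was nearest to the mean of the 7 keratins were SNAPIN, ZNF646, CERK, SRF and NUP62, at root mean square differences of 0.0137 to 0.0217 on the log2 scale, where the median over 4221 genes was 0.119. That mean profile follows the 50 counts of KRT17 in DMSO replicate 2, and the closest keratin to it was KRT10 at 0.0207. With KRT17 left out, a choice made after the values had been seen, the nearest were PIEZO1, COTL1, RGS3, USP5 and CLPTM1, at differences of 0.0007 to 0.0080 where the median was 0.0793, nearer than any of the 6 keratins (KRT8 was at 0.0186). All 5 had both erianin libraries above both DMSO libraries. The profile they were chosen to match has the same order, so this followed from the choice.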

How the data were processed

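RNA sequencing libraries of SW1990 cells, 2 with erianin and 2 with DMSO, were grouped and numbered by the sample titles. The authors deposited whole-number estimated counts, not normalized, and per the file headers FPKM per library; both tables have 107429 entries for 25798 gene IDs, in the same order and with no transcript names. Per the submitters' processing notes, fastp, STAR, StringTie 2.2.1, featureCounts 2.0.1 and GRCh38 were used; roles, annotation, strand setting and treatment of shared reads were not given in the sources used here. Because the entries of a gene are unequal and shift between replicates, they were handled as estimated counts, not as the plain counts assumed at first.

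Entries were summed per gene ID. A gene name table gave symbols (25779 IDs matched). Positions, GC content (of the longest transcript of each gene) and sequences came from GENCODE release 29 (24725 IDs). edgeR 4.0.16 (R 4.3.3) tested 17090 genes that passed filterByExpr (minimum count 10), with TMM factors, the quasi-likelihood F test on group alone (2 residual degrees of freedom) and Benjamini-Hochberg adjustment at 0.05. CPM are per TMM-adjusted library. Intervals are 95%. Near copies shared at least 200 nucleotides at 95% identity (BLAST+ 2.17.0). The GC and length trend of each library was fitted with splines (5 degrees of freedom). Alternatives used DESeq2 1.42.0 and limma 3.58.1, the latter also on log2(FPKM + 1) and log2(FPKM + 0.1). The edgeR step was tested on simulated data with changes larger than those of the keratins and no GC trend. It does not cover changes as small as theirs.

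The keratins, the other lists and the tests were chosen with earlier results of these data known. Named were all 7 members, other keratins with a mean of at least 1 CPM, keratin pseudogenes above 1 CPM in a library, and, per list, the 3 members with the smallest p at a mean of at least 1 CPM plus the most abundant one. The 5 genes most like the keratins were found by the root mean square difference of log2(CPM + 0.5) deviations, among genes whose log2 CPM averaged 5 or more. The result of 1 listed transcription factor and some sequences are not reported here.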

Additional observations from a re-analysis of the deposited data

How the results depend on the processing

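Only 2 libraries per group limit every comparison, and no keratin passed in any fit that kept all libraries. Of 103 values of the 6 tested keratins under alternatives, 9 took the other sign. For KRT7 the log2 fold change was -0.0046 with the GC and length trend removed and -0.0046 with this and the replicate block. For KRT10 it was -0.038 with library totals alone, -0.030 on log2(FPKM + 1), -0.033 on log2(FPKM + 0.1), -0.0018 with the GC and length trend removed and -0.00017 with this and the replicate block. Leaving out 1 library gave 0.10 to 0.30 for KRT7, 0.081 to 0.28 for KRT8, -0.037 to 0.17 for KRT10 (-0.037 without DMSO replicate 1, -0.018 without erianin replicate 2), 0.054 to 0.22 for KRT18, 0.16 to 0.30 for KRT19 and 0.20 to 0.25 for KRT80. In the other alternatives the ranges were 0.065 to 0.21 for KRT8, 0.0027 to 0.17 for KRT18, 0.015 to 0.26 for KRT19 and 0.12 to 0.25 for KRT80, and the smallest adjusted p of any keratin was 0.276.

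The median over the 6 keratins, 0.20, was 0.097 with library totals alone (which moved the median of all genes from -0.01 to -0.11). With limma on log2(FPKM + 1) and on log2(FPKM + 0.1) it was 0.108, with 5 keratins above and 1 below 0 in each. It was 0.0095 with the GC and length trend removed and 0.0090 with this and the replicate block. When 1 library was left out it ran from 0.090 to 0.27. Of all genes 7 passed, against 2 with library totals alone, 21 with DESeq2's test, 0 with limma-voom (which had 1673 at an unadjusted p under 0.05, where edgeR had 1385), 2 and 2 with limma on log2(FPKM + 1) and log2(FPKM + 0.1), 334 with the replicate block, 16 with the replicate block and the trend removed, and 24 to 3166 without 1 library, where the spread comes from the group that keeps both libraries and the lone library is assumed to vary like it. The replicate numbers pair libraries in the titles only. Differences between replicates 1 and 2 correlated at 0.22 between the groups across 7977 genes, and the block made no keratin pass. KRT17 could be fitted only where a looser filter or fewer libraries kept it, at a smallest adjusted p of 0.205.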
